A study of Mus musculus with 12 samples.

Results

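The question addressed here is whether interferon β (IFNβ), a type I interferon, altered the way gene expression changed with time in monocytes cultured toward macrophages. Mouse bone marrow monocytes, isolated by magnetic sorting, were kept in M-CSF at 20 ng/mL, a growth factor for macrophage development that all groups received. The 12 samples form 4 groups of 3 replicates: M-CSF alone for 12 h, M-CSF alone for 24 h, M-CSF with 100 U of IFNβ for 12 h, and M-CSF with 100 U of IFNβ for 24 h. The sources used here do not give the strain, the age or how many animals stand behind a replicate, so the p-values reflect only how far these samples spread, and that spread may be technical. In bulk samples, fewer cells of a type and less RNA per cell cannot be told apart.

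The members are the 224 genes that appear both in the authors' table of 24 h against 12 h without IFNβ, which lists 645 genes, and in their table of 24 h against 12 h with IFNβ, which lists 602, out of 2038 genes in any table with library values. The listed genes are 4.08% of the genes tested for time without IFNβ and 3.87% of those tested with it. All genes listed by the authors have an adjusted p below 0.05 and changed at least 2-fold, so both time changes of every member had to be large, and the size of either change alone is a description and not a finding. The members nearest that limit in the authors' deposited table were Fpr1 (log2 fold change 1.0 with IFNβ), Cox6a2 (-1.0) and Igfbp6 (-1.01). Genes listed in only 1 of the tables (421 without and 378 with IFNβ) have no values in the other and are not analysed here. The largest effects of IFNβ on a time course can therefore lie outside these members.

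IFNβ binds a receptor on nearly all nucleated cells and turns on a broad set of antiviral genes within hours, many of which are later turned down by feedback. M-CSF acts through a different receptor, a tyrosine kinase, and over days turns monocytes into macrophages, which gain genes for phagocytosis of dying cells, complement and lipid handling. A gene under both signals can follow the same time course with and without IFNβ, or a different one. The quantity compared here is a difference of changes. For each replicate number the change was log2(24 h value + 1) minus log2(12 h value + 1), on the authors' normalized counts, and the 3 changes with IFNβ were compared with the 3 changes without it. A positive difference means a larger rise or a smaller fall with IFNβ, and a negative difference the reverse. The authors scaled each table on its own, and the scale of a library present in 2 tables differed between them by -11.5% to 13.2%. The shift had a single direction per treatment. Relative to the authors' table of IFNβ against control at 12 h, control libraries were scaled by 1.10 to 1.13 and IFNβ libraries by 0.885 to 0.901. On that scale, levels set side by side here are raised for controls and lowered for IFNβ. The shift at 24 h could not be measured. Each change is taken within 1 table. Rises and falls are therefore compared as folds, not as added counts. The depth of the libraries is unknown, since the tables hold normalized values of listed genes only.

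Most members moved the same way with and without IFNβ. Without a test, 160 rose in both treatments, 57 fell in both and 7 went in opposite directions. Across the 224 genes, which are not independent replicates, the mean changes had a Pearson r of 0.862, but both tables leave out changes near 0; among the 160 rising genes r was 0.478 and among the 57 falling genes 0.460. The median difference was -0.06 over all members, -0.04 over the rising and -0.07 over the falling genes, and -2.92 over the 7 with opposite directions. Of the 224 members, 52 (23.2%) differed in their time change by limma at an adjusted p under 0.05. The change was more positive with IFNβ for 19 (8.48%) and more negative for 33 (14.7%). The 3 changes of the treatments did not overlap for 73 members (32.6%), and 50 of these were among the 52. Of the rising genes 34 of 160 were called and of the falling genes 11 of 57. All 7 genes with opposite directions were called, but nothing is read from this, since a gene listed in both tables with opposite directions has a large difference by the way the members were chosen.

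**Figure D1:**
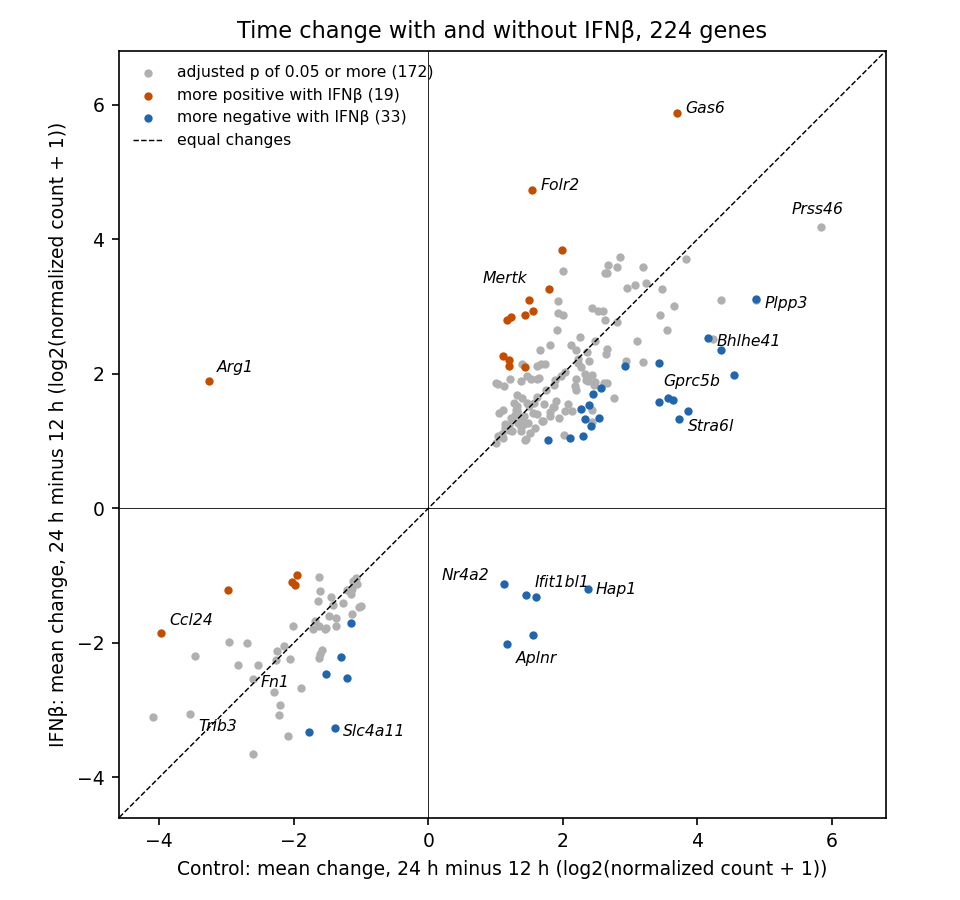
Mean change from 12 h to 24 h without IFNβ (x axis) and with IFNβ (y axis) for the 224 genes, on the log2(normalized count + 1) scale; each point is a gene, n = 3 changes per treatment. Most points lie near the dashed line of equal changes, the 19 genes more positive with IFNβ lie above it, the 33 more negative below it, and 7 genes lie in the quadrants of opposite direction.

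The remaining 172 genes are not shown to change alike. For 62 of them the 95% interval of the difference lay between -1 and 1 on the log2 scale, so a difference of 2-fold or more was outside it, and for 110 the interval reached at least 1 of these bounds. The median SE of a difference was 0.363. When the 12 libraries were fitted as 4 groups without replicate numbers, 18 genes passed, all of them among the 52: Aplnr, Arg1, Bhlhe41, Cd200, Folr2, Gas6, Gbgt1, Gm9992, Gpr55, Gprc5b, Hap1, Ifit1bl1, Lysmd2, Nr4a2, Plpp3, Rnase4, Stra6l and Timp2. Leaving out control replicate 2 lowered the count to 31. Of the 52 genes, 28 kept the call whichever replicate was left out and 24 lost it in at least 1 case.

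The alternative activation gene Arg1, which encodes the enzyme that breaks down arginine to ornithine and urea, showed the largest difference of all members. It lies on chromosome 10, 24915207 to 24927470 in GRCm38. Without IFNβ its normalized counts in replicates 1 to 3 were 1372, 5263 and 19037 at 12 h and 331, 309.8 and 1501 at 24 h, a fall in every replicate. With IFNβ they were 230.2, 1661 and 1747 at 12 h and 1941, 2569 and 6982 at 24 h, a rise in every replicate. The levels varied widely between replicates of a group, with replicate 3 highest in all 4 groups, but the changes did not overlap: -2.05, -4.08 and -3.66 without and 3.07, 0.63 and 2.0 with IFNβ. The difference was 5.16 ± 0.49 (SE; 95% interval 4.13 to 6.20), adjusted p = 5.54e-07. Without the replicate numbers the adjusted p was 0.0223. Since the gene is a member with opposite directions, a large difference was set by the choice of members, and these p-values are descriptive only.

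The other 6 genes with opposite directions rose without IFNβ and fell with it. Their p-values are descriptive only, for the same reason as that of Arg1. Ifit1bl1, a member of the interferon-induced Ifit family whose products bind foreign RNA, lies on chromosome 19, 34592888 to 34662981 in GRCm38 and shares sequence with other Ifit genes, so reads may be split between them. Its counts without IFNβ were 89.5, 75.2 and 54.9 at 12 h and 217, 262 and 138 at 24 h. With IFNβ they were 42286, 31911 and 28963 at 12 h and 17049.7, 11749.8 and 13381 at 24 h. All IFNβ libraries were far above all control libraries at both times, while the changes had opposite signs in every replicate, with a difference of -2.75 ± 0.21 (SE; 95% interval -3.19 to -2.31) and adjusted p = 5.33e-08. It was the only one of 67 interferon-stimulated genes on the list that is in both time tables: 5 of the list are in the table without IFNβ and 13 in the table with it.

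Promoter windows from RefSeq on GRCm38.p6, from 250 bases before to 50 bases after a start site, were found for 165 of the 224 members. They were searched on both strands for the interferon-stimulated response element core (GAAA, then 2 bases of any kind, then GAAA), which is bound by the factors that IFNβ activates. A window with it was found for 4 of the 165 members (2.42%), against 3.99% of 27025 genes with a window. Among the 38 called members with a window, 2 held it, and they went opposite ways. Ifit1bl1 had opposite changes and the difference given above. Sepp1, the older symbol of the selenium carrier gene Selenop, rose further with IFNβ, from 1029, 957 and 1039.9 to 5063, 3836 and 4229, than without, from 4690.5, 3811 and 4554 to 11783, 10039.5 and 13480.3. Its difference was 0.68 ± 0.18 (adjusted p = 0.0126, and 0.0633 without control replicate 2), and it is named after its values were seen. The windows of these 2 genes are shown with the core in capitals, on the strand of the gene; for Ifit1bl1 the core is on the opposite strand and reads in reverse complement. The Ifit1bl1 window is chr19:34601919-34602218, minus strand, 1 of 2 listed windows, and the Sepp1 window is chr15:3270517-3270816, plus strand, 1 of 3.
Ifit1bl1: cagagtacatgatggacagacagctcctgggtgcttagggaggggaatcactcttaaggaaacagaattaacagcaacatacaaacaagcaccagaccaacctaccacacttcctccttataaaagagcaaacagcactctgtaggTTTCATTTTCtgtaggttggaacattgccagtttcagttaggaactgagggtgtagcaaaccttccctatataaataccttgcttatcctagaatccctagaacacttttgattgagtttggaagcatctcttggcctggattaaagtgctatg
Sepp1: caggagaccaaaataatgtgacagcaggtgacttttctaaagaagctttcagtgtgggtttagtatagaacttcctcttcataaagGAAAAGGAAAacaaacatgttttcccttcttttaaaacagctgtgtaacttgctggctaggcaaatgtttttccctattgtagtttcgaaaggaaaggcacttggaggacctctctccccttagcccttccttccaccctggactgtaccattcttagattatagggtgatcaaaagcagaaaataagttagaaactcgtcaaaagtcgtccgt
The core starts 104 bases before the start site in the Ifit1bl1 window and 164 bases before it in the Sepp1 window. A match describes letters in the window and shows no binding.

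Aplnr, the receptor gene for the peptide hormone apelin (chromosome 2, 85136360 to 85139923 in GRCm38), followed the same course at lower levels. Its counts went from 38.4, 53.5 and 33.3 to 78.6, 111 and 94.0 without IFNβ. With IFNβ they went from 839, 658 and 589.7 to 190.4, 173 and 147. The groups did not overlap at either time, and the gap between treatments was narrower at 24 h; the difference of changes was -3.19 ± 0.32 (SE; 95% interval -3.86 to -2.53), adjusted p = 7.12e-07.

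Nr4a2, which encodes an orphan nuclear receptor of the early response class (chromosome 2, 57106830 to 57124003 in GRCm38), differed from these in its start. Its counts at 12 h overlapped, at 56.0, 82.2 and 63.8 without and 62.0, 93.2 and 81.6 with IFNβ, and it is not in the authors' 12 h table. At 24 h they were 174, 131 and 139 without and 24.4, 36.7 and 48.9 with IFNβ, with no overlap. The difference of changes was -2.25 ± 0.41 (SE; 95% interval -3.12 to -1.38), adjusted p = 8.73e-04. Hap1, Gpr55 and Lysmd2 are among the 25% of members with the lowest counts and are named only because they complete the 7. Hap1, a huntingtin-associated protein gene, was listed at 0 in all 3 control libraries at 12 h and at 1.95, 6.48 and 5.21 at 24 h, and with IFNβ it went from 139.8, 154 and 106 to 80.5, 66.2 and 33.7. With controls at 0 the size of its difference is set by the pseudocount: it was -6.60 with 0.1, -3.57 with 1 and -1.61 with 10, and it passed with each. The differences of Gpr55, a lipid-sensing receptor gene, and Lysmd2 were -2.92 ± 0.63 and -3.44 ± 0.75 (SE), with adjusted p = 0.00229 and 0.00229. With a pseudocount of 10 they were -1.80 and -1.87 and still passed (adjusted p = 0.00112 and 0.00121).

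**Figure D2:**
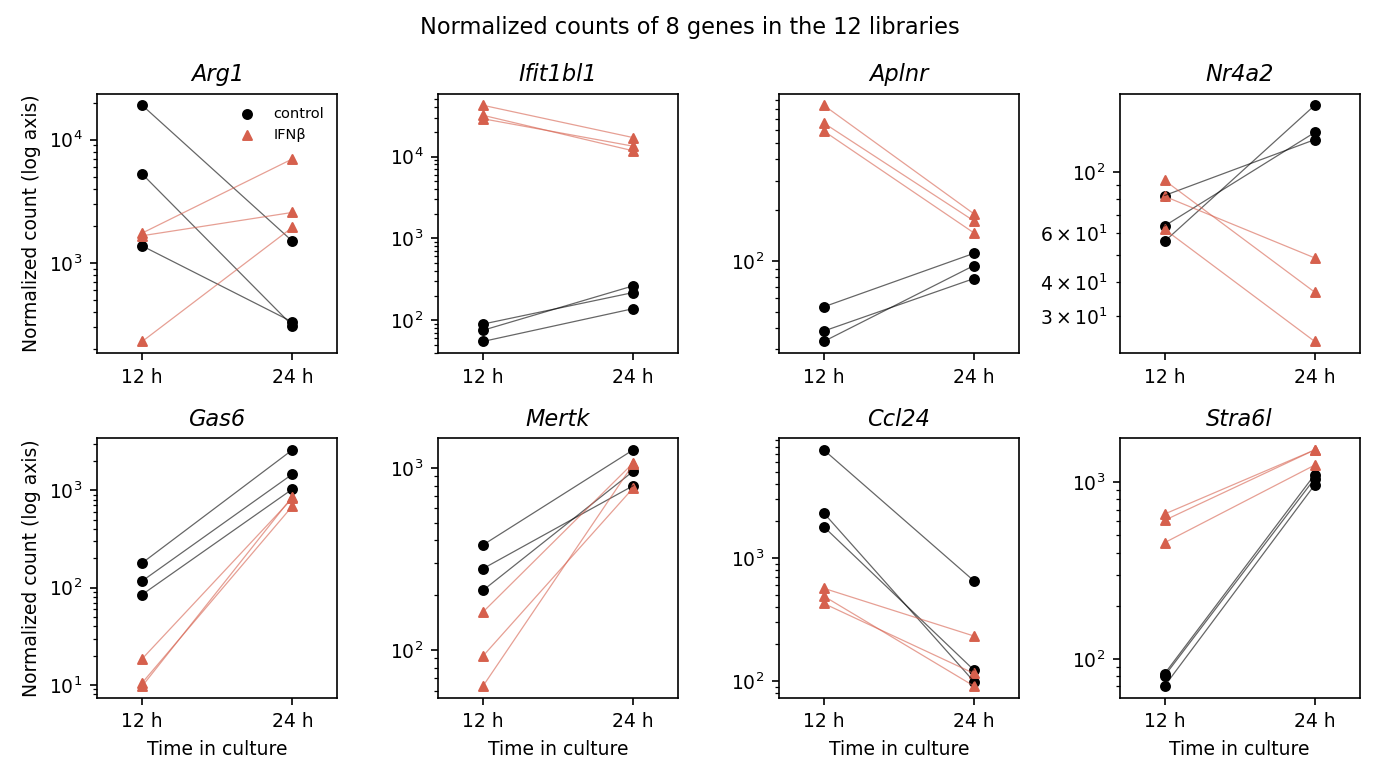
Normalized counts (log axis, each panel with its own range) at 12 h and 24 h for 8 genes; each point is 1 of the 12 libraries, lines join libraries of the same replicate number, circles are controls and triangles IFNβ. The lines of Arg1, Ifit1bl1, Aplnr and Nr4a2 slope in opposite directions in the treatments; those of Gas6 and Mertk rise more steeply with IFNβ, Ccl24 falls less steeply and Stra6l rises less steeply.

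Gas6 and Mertk, which act together in the uptake of dying cells, rose further with IFNβ. Gas6 encodes the bridging ligand that links phosphatidylserine on dying cells to the TAM receptors, of which MERTK is the main one in macrophages. Gas6 (chromosome 8, 13465374 to 13494535 in GRCm38) went from 117, 85.0 and 179.7 to 1467, 1029.9 and 2608 without IFNβ and from 18.6, 10.5 and 9.75 to 829, 689 and 863 with it. At 12 h all IFNβ libraries were below all control libraries. At 24 h they were also lower as scaled by the authors, but by less. The gap between the nearest libraries, 863 and 1029.9, is smaller than the shift of scale between the treatments at 12 h, so a separation at 24 h is not shown. The difference of changes was 2.19 ± 0.31 (SE; 95% interval 1.54 to 2.83), adjusted p = 7.31e-05. With a pseudocount of 10 it was 1.55 and still passed (limma adjusted p = 2.43e-04). Mertk (chromosome 2, 128698915 to 128803162 in GRCm38) went from 213, 280.0 and 378 to 958, 798 and 1256 without and from 63.5, 92.8 and 162 to 1047, 775 and 1064 with IFNβ. Its levels did not overlap at 12 h and did at 24 h; the difference was 1.46 ± 0.32 (SE; 95% interval 0.79 to 2.13), adjusted p = 0.00229, and 0.0614 without the replicate numbers. Mfge8, which encodes another bridging protein for dying cells and is named after its values were seen, did not pass, with a difference of -0.08 ± 0.22 (SE; 95% interval -0.54 to 0.38).

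The macrophage list held 12 members of 40 genes. Of these, 4 were more positive with IFNβ (Arg1, Folr2, Gas6 and Mertk), 0 more negative and 8 not called. Over all members 23.2% were called and 8.48% were more positive. Arg1 had opposite directions, so its call was set by the choice of members and the count of 4 is descriptive only. The median difference was 0.40, beside -0.06 over all 224. Folr2, the folate receptor gene of tissue macrophages, is among the 25% of members with the lowest counts. It went from 5.47, 5.94 and 3.91 to 24.6, 7.98 and 22.9 without and from 1.29, 2.65 and 3.63 to 72.0, 103 and 95.8 with IFNβ, a difference of 3.19 ± 0.70 (SE; 95% interval 1.71 to 4.67), adjusted p = 0.00239. All IFNβ libraries at 24 h were above all control libraries. The size of the Folr2 difference depended on the pseudocount: it was 3.51 with 0.1 and 2.13 with 10, and it passed with each (limma adjusted p = 0.00989 and 3.96e-04). The complement C1q subunit genes, which form 1 cluster on chromosome 4, rose in every replicate of both treatments: the differences were 0.39 ± 0.30 (SE; 95% interval -0.24 to 1.02) for C1qa, 0.40 ± 0.24 (SE; 95% interval -0.11 to 0.91) for C1qb and 0.79 ± 0.30 (SE; 95% interval 0.16 to 1.42) for C1qc. None of these passed (adjusted p = 0.438, 0.286 and 0.0650). With the replicate number also pairing the treatments C1qb and C1qc did (0.0491 and 1.27e-04) and C1qa did not (0.191). C1qc also passed with the median difference taken off (0.0464) and without control replicate 1 (0.0343), IFNβ replicate 2 (0.0257) or IFNβ replicate 3 (0.0251). It did not pass without control replicate 2 (0.134), and its difference fell to 0.55 without control replicate 3 (0.315) and to 0.44 without IFNβ replicate 1 (0.330). Gpnmb, a lysosomal glycoprotein gene with the highest counts of the list, had a difference of -0.52 ± 0.20 (SE; 95% interval -0.94 to -0.10) and passed with that pairing (adjusted p = 0.0651 without it and 0.00321 with it). The lipid transport gene Apoe rose in every replicate of both treatments, with a difference of 0.01 ± 0.20 (SE; 95% interval -0.42 to 0.44); its levels with IFNβ, 7515, 5585 and 5585 and then 13157, 15466 and 11319, were below the control levels of 32159, 22171 and 35718 and 63988, 56979 and 67578. The fatty acid binding protein genes had differences of -0.48 ± 0.25 (Fabp4) and 0.29 ± 0.20 (Fabp5), and the Fc receptor gene Fcgr4 of 0.10 ± 0.20 (SE); none of these passed.

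**Figure D3:**
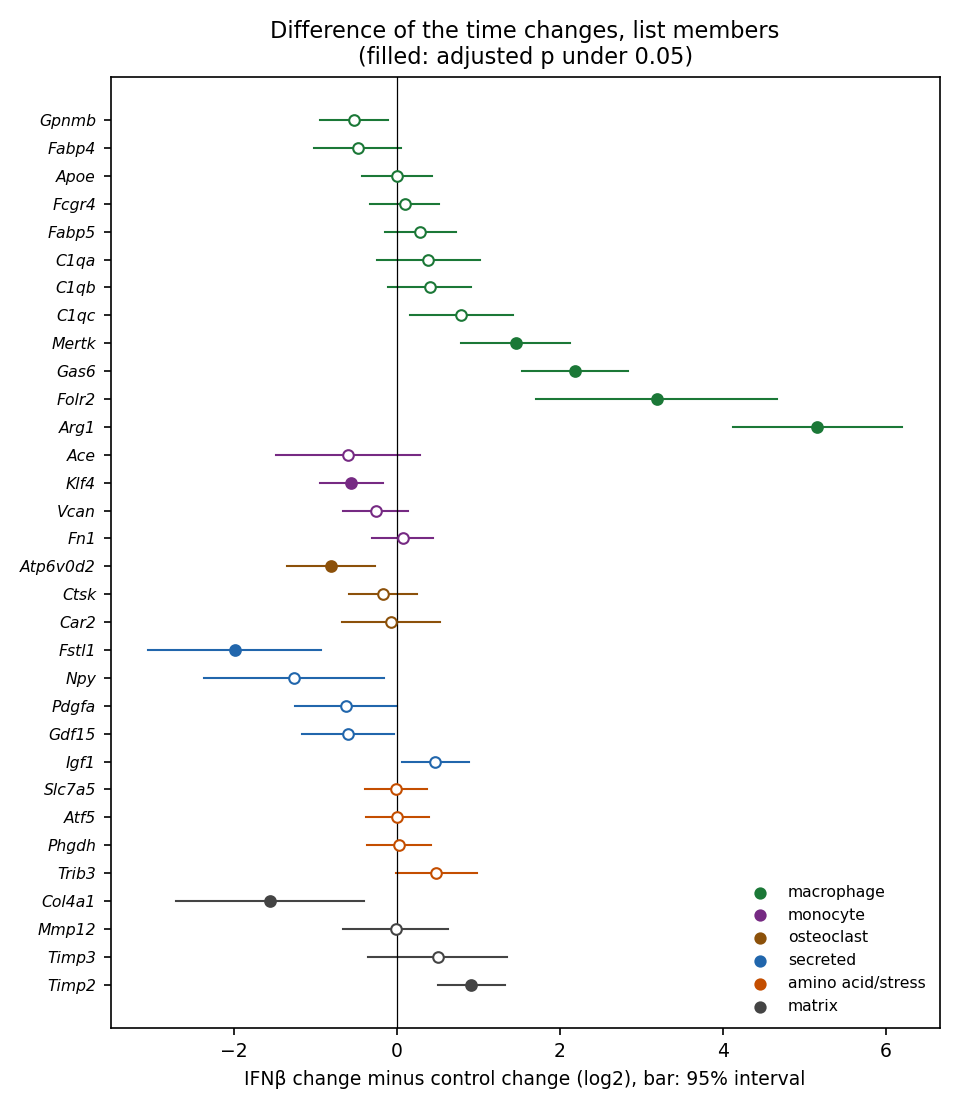
Difference between the time change with IFNβ and without it (log2) for 32 members of the macrophage, monocyte, osteoclast, secreted factor, amino acid and stress, and matrix lists, with the 95% interval from limma; filled points have an adjusted p under 0.05. The largest positive values are those of Arg1, Folr2, Gas6 and Mertk, and 3 of the 4 amino acid and stress genes lie near 0.

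Several other genes rose further with IFNβ. For Cbr2, Abcc3, Enpp1, Rnase4 and Timp2 all IFNβ libraries were below all control libraries at 12 h. Cbr2, a carbonyl reductase gene, had changes of 1.72, 0.95 and 1.02 without and 3.12, 3.0 and 2.39 with IFNβ (difference 1.61 ± 0.32, adjusted p = 0.00134). The changes of Abcc3, an organic anion transporter gene, were 1.73, 1.12 and 1.65 without and 3.09, 3.27 and 2.93 with IFNβ (difference 1.60 ± 0.30, adjusted p = 9.57e-04). Enpp1 encodes a surface enzyme that hydrolyses ATP and the second messenger cGAMP, and its changes were 1.68, 1.41 and 1.22 without and 3.54, 2.66 and 2.43 with IFNβ (difference 1.44 ± 0.28, adjusted p = 0.00131). For these 3 genes the treated changes lay above the control changes without overlap. Rnase4, a secreted ribonuclease gene, started at 42.8, 48.7 and 48.4 with and 91.9, 76.2 and 96.2 without IFNβ. At 24 h it stood at 352, 276 and 374 with and 219, 191 and 189 without IFNβ, so the order of the treatments was reversed between the times (difference 1.63 ± 0.33, adjusted p = 0.00156). Timp2, an inhibitor of matrix metalloproteases, had a smaller difference of 0.92 ± 0.20 (SE; 95% interval 0.50 to 1.33), adjusted p = 0.00229. Without the replicate numbers Cbr2, Abcc3 and Enpp1 did not pass (adjusted p = 0.133, 0.0614 and 0.0725), and Rnase4 and Timp2 did. Cd300ld4, of the Cd300 receptor family and close in sequence to its neighbours, had a difference of 1.37 ± 0.43 (adjusted p = 0.0296) that was lost without control replicate 1 (0.160), control replicate 2 or IFNβ replicate 1.

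A positive difference can also be a smaller fall. Ccl24, an eosinophil-attracting chemokine gene of alternative activation (chromosome 5, 135569935 to 135573123 in GRCm38), fell in both treatments. Its counts went from 1793, 2317 and 7545 to 123, 99.1 and 651 without IFNβ and from 489, 427 and 567 to 91.1, 115 and 232 with it. Replicate 3 was highest in all 4 groups, as it was for Arg1. The difference was 2.12 ± 0.31 (SE; 95% interval 1.46 to 2.77), adjusted p = 1.20e-04, and the gene did not pass without the replicate numbers (0.195). Il1b, the other member from the cytokine and chemokine list, fell in every replicate. Its changes were -0.98, -1.0 and -1.34 without and -1.67, -0.81 and -0.90 with IFNβ. It did not pass: its difference was -0.02 ± 0.28 (SE; 95% interval -0.63 to 0.58). Of the 38 cytokine and chemokine genes on the list these 2 were in both tables, while 4 are in the table without IFNβ and 15 in the table with it. Ddx4, which encodes an RNA helicase known from germ cells, went from 17.8, 8.86 and 55.1 to 1.96, 0 and 6.19 without and from 203, 184 and 213 to 97.9, 74.9 and 85.6 with IFNβ. Its difference of 1.77 ± 0.50 (adjusted p = 0.0160) depended on the pseudocount. With 10 in place of 1 it was 0.25 (adjusted p = 0.724), and without control replicate 2 the adjusted p was 0.0837.

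**Figure D4:**
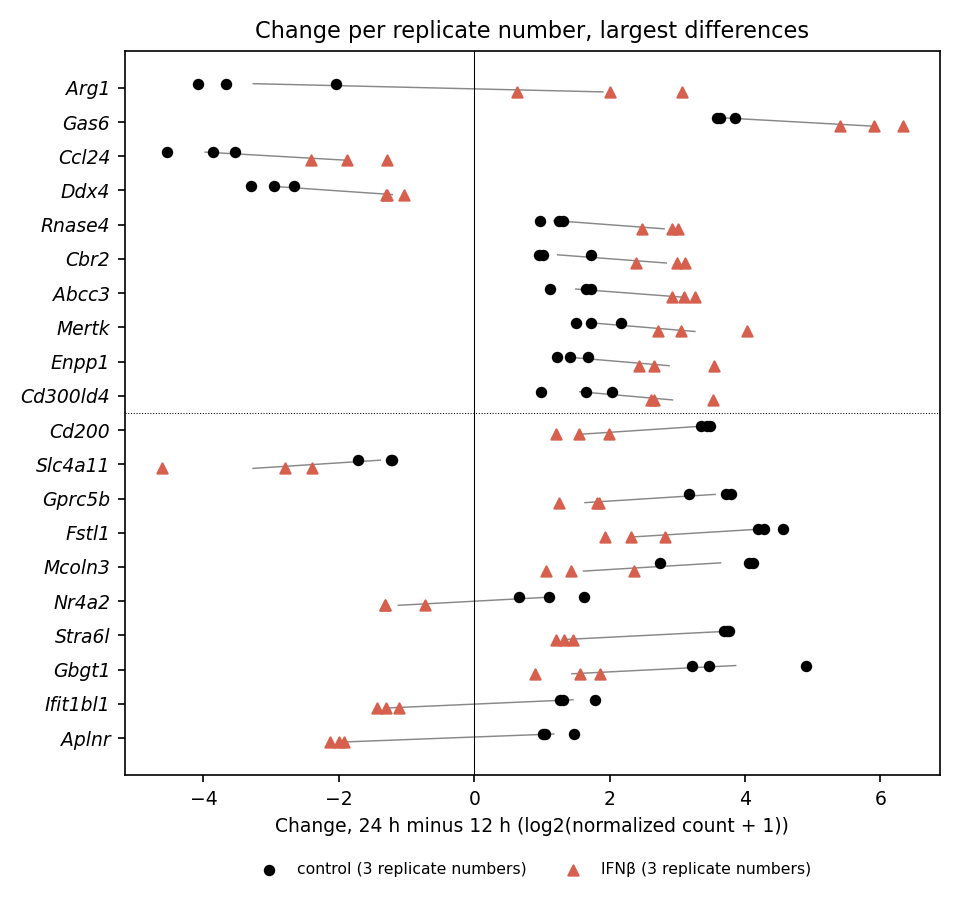
Change from 12 h to 24 h per replicate number (log2(normalized count + 1)) for the 10 largest positive differences (above the dotted line) and the 10 largest negative ones (below it); circles are controls, triangles IFNβ, n = 3 each, and the grey line joins the means. No gene shown has overlapping changes.

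Of the 160 genes that rose in both treatments, 13 were called with a larger rise with IFNβ and 21 with a smaller one. Over all members 8.48% were called more positive and 14.7% more negative. Stra6l, which encodes a retinol-binding protein receptor (chromosome 4, 45824293 to 45887010 in GRCm38), is an example of a smaller rise. Its counts went from 70.2, 80.2 and 82.4 to 967, 1049.7 and 1105 without IFNβ and from 609, 455 and 661 to 1525, 1251 and 1525 with it. The IFNβ libraries were above the controls at both times, so the smaller rise started from a higher level; the difference was -2.40 ± 0.23 (SE; 95% interval -2.88 to -1.92), adjusted p = 5.54e-07. Gprc5b, an orphan receptor gene, rose by 3.79, 3.17 and 3.71 without and 1.84, 1.81 and 1.26 with IFNβ (difference -1.92 ± 0.30, adjusted p = 1.72e-04). Mcoln3, which encodes a cation channel of endosomes and lysosomes, rose by 2.74, 4.12 and 4.05 without and 1.43, 2.36 and 1.05 with IFNβ (difference -2.02 ± 0.38, adjusted p = 9.96e-04, and 0.0655 without the replicate numbers). Both were higher with IFNβ at 12 h in the authors' deposited table, with log2 fold changes of 2.51 and 2.14, although single libraries of Mcoln3 overlapped.

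For some other genes with a smaller rise, such as Fstl1 and Ccr7, the levels at 12 h were close and those at 24 h were not. Fstl1, a secreted follistatin-related protein gene, stood at 6.67, 10.9 and 9.82 without and 9.55, 6.95 and 14.5 with IFNβ at 12 h, and at 147, 279 and 197 and 73.3, 29.2 and 76.4 at 24 h (difference -1.99 ± 0.50, adjusted p = 0.00805, and 0.0614 without the replicate numbers). Ccr7, the chemokine receptor gene that guides cells to lymph nodes, stood at 497, 329 and 601 without and 345, 331 and 550.0 with IFNβ at 12 h. At 24 h it was at 2412, 1730.0 and 1896 without and 676, 807 and 1023 with IFNβ (difference -1.06 ± 0.24, adjusted p = 0.00348, and 0.120 without the replicate numbers). For both genes the libraries of the treatments overlapped at 12 h and did not at 24 h. Gbgt1, a glycosyltransferase gene, and Cd200, which encodes the ligand of an inhibitory myeloid receptor, had differences of -2.42 ± 0.51 and -1.84 ± 0.33 (adjusted p = 0.00228 and 8.51e-04). Cd200 was already higher with IFNβ at 12 h in the authors' deposited table (log2 fold change 1.26), where Gbgt1 was not listed. Outside the rule for named genes, Plpp3, a lipid phosphatase gene, and Bhlhe41, which encodes a repressor that binds E-box sequences, are given because they passed also without the replicate numbers: the differences were -1.77 ± 0.34 and -1.62 ± 0.25 (adjusted p = 0.00111 and 1.72e-04). Bhlhe41 rose from 174, 112 and 137 to 2726, 2222 and 2546 without and from 259, 155 and 342 to 1475, 1226 and 1498 with IFNβ. At 12 h it was higher with IFNβ in the authors' deposited table (log2 fold change 1.16), although single libraries overlapped.

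The promoter window of Bhlhe41 is shown because this factor's own window holds 1 E-box, CACGTG, the kind of sequence it binds. The palindrome was found in windows of 16 of the 165 members (9.70%), 5 of the 38 called ones and 8.09% of all genes. The window is chr6:145865371-145865670, minus strand, in GRCm38.p6, with the match in capitals.
Bhlhe41: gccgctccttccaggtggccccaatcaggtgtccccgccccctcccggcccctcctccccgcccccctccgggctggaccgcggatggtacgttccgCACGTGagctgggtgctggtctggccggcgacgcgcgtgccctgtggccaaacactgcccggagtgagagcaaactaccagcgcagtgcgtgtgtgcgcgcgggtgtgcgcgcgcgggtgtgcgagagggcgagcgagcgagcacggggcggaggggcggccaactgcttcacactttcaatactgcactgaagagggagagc

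Smaller differences of the same kind were less secure. Atp6v0d2, a proton pump subunit gene of osteoclasts, rose by 3.35, 2.77 and 2.65 without and 2.44, 2.25 and 1.65 with IFNβ (difference -0.81 ± 0.26, adjusted p = 0.0296). The call was lost without control replicate 1, control replicate 2 or IFNβ replicate 3, with an adjusted p of up to 0.169. The other osteoclast genes in both tables, the protease gene Ctsk and the carbonic anhydrase gene Car2, differed by -0.17 ± 0.20 (SE; 95% interval -0.59 to 0.25) and -0.07 ± 0.28 (SE; 95% interval -0.67 to 0.53) and did not pass. Fpr1, a receptor gene for bacterial formyl peptides, differed by -0.76 ± 0.22 (adjusted p = 0.0197, and 0.116 without control replicate 2). Of 5 genes for growth factors and secreted proteins 1, Fstl1, was called, against 23.2% of all members. The differences of the others were 0.48 ± 0.19 for Igf1, -0.60 ± 0.27 for Gdf15, -0.62 ± 0.30 for Pdgfa and -1.26 ± 0.52 for Npy (SE). With a pseudocount of 10 the difference of Npy was -0.20 (adjusted p = 0.785). Igf1 and Gdf15 passed where the replicate number also paired the treatments (adjusted p = 0.0398 and 0.0234), and Gdf15 passed without IFNβ replicate 2 (0.00683).

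Of the 57 genes that fell in both treatments, 6 were called with a deeper fall with IFNβ and 5 with a smaller one. The shares over all members were 14.7% more negative and 8.48% more positive. Slc4a11, a solute carrier gene, went from 126, 85.1 and 88.3 to 37.4, 35.7 and 37.6 without and from 506, 438 and 406 to 19.7, 62.5 and 76.3 with IFNβ. It started higher with IFNβ in every replicate, and at 24 h the treatments overlapped; the difference was -1.88 ± 0.49, adjusted p = 0.00937, and 0.0537 without control replicate 2 or 0.0532 without control replicate 3. Without IFNβ replicate 1 the difference was -1.21 (adjusted p = 0.0359). Bcl2a1a, a survival gene of the Bcl2 family with near-identical copies that may share its reads, went from 136, 126 and 179.6 to 65.9, 64.1 and 56.4 without IFNβ. With IFNβ it went from 530.2, 391 and 293 to 60.6, 88.3 and 58.1 (difference -1.30 ± 0.37, adjusted p = 0.0160). Ptgs2, which encodes the inducible cyclooxygenase of prostaglandin synthesis, differed by -0.94 ± 0.31 (adjusted p = 0.0365), and Klf4, a transcription factor gene of monocyte differentiation, by -0.56 ± 0.18 (adjusted p = 0.0324). The calls of these 3 depended on single replicates: the adjusted p reached 0.0837 for Bcl2a1a and 0.153 for Klf4 without control replicate 2, and 0.177 for Ptgs2 without control replicate 1; Ptgs2 lost the call whichever replicate was left out. The other monocyte genes in both tables, the matrix genes Fn1 and Vcan and the peptidase gene Ace, did not pass. Fn1 had changes of -2.59, -2.64 and -2.61 without and -2.56, -2.71 and -2.34 with IFNβ, a difference of 0.08 ± 0.18 (SE; 95% interval -0.30 to 0.45), although its counts with IFNβ, 3787, 2792 and 4559.7 at 12 h, were far below the 154903, 123225 and 150005 of the controls. Vcan differed by -0.26 ± 0.19 (SE; 95% interval -0.66 to 0.14) and Ace by -0.59 ± 0.42 (SE; 95% interval -1.48 to 0.29).

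Of the genes of amino acid supply and the integrated stress response, Slc7a5, Phgdh and Atf5 had differences near 0. All 4 members of that list, of 30 genes, fell in every replicate of both treatments, and none was called, against 23.2% of all members. The differences were -0.01 ± 0.18 (SE; 95% interval -0.39 to 0.38) for the amino acid transporter gene Slc7a5, 0.03 ± 0.19 (SE; 95% interval -0.36 to 0.42) for Phgdh, which encodes the first enzyme of serine synthesis, and 0.01 ± 0.18 (SE; 95% interval -0.37 to 0.39) for the transcription factor gene Atf5. These intervals leave out a difference of 0.5 in either direction. The stress pseudokinase gene Trib3 fell most, from 2482, 2347 and 2938 to 295, 187 and 193 without and from 6628, 5463 and 5312 to 756, 594 and 742 with IFNβ. Its difference of 0.49 ± 0.23 (SE; 95% interval -0.01 to 0.98) did not pass (adjusted p = 0.159) and passed where the number also paired the treatments (0.0488). It ranged with the replicate left out from 0.30 without control replicate 3 (adjusted p = 0.525) to 0.73 without control replicate 1, where it passed (0.0443). Beside these, the aminopeptidase gene Anpep and Hgsnat, which encodes a lysosomal acetyltransferase, had the narrowest intervals around 0, at 0.00 ± 0.21 (SE; 95% interval -0.44 to 0.44) and 0.03 ± 0.19 (SE; 95% interval -0.37 to 0.42); both rose in every replicate of both treatments.

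The promoter window of Trib3 is shown as an example of this list. It holds 1 match to TGATGNAA, the amino acid response element bound by the stress factor ATF4, found in 6 of the 165 members (3.64%) and 4.51% of all genes. The window is chr2:152344011-152344310, minus strand, in GRCm38.p6; the match, in capitals, is on the opposite strand and starts 15 bases after the start site.
Trib3: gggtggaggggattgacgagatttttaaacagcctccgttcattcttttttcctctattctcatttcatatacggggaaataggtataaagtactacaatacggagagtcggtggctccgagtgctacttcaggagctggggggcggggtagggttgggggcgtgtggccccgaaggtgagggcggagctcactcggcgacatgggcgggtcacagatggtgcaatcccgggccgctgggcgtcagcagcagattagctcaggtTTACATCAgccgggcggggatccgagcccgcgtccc

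Markers of other cell types were few among the members, and their part in the results was not tested. Of 22 neutrophil markers 3 were members, all stefin genes close in sequence, and their summed counts ranged from 139 to 259 without and from 95.1 to 260.0 with IFNβ at 12 h, and from 747 to 1504 without and from 310.1 to 898 with IFNβ at 24 h. Stfa2l1 alone was called (-0.86 ± 0.27, adjusted p = 0.0274, and 0.0974 without control replicate 2). Of 15 B cell markers Blnk, which macrophages also express, and Jchain were members: Blnk rose less with IFNβ (difference -0.75 ± 0.24, adjusted p = 0.0297) and Jchain fell further (-0.91 ± 0.32, adjusted p = 0.0461). Both calls were lost when single replicates were left out, with an adjusted p of up to 0.165 for Blnk without control replicate 1 and 0.244 for Jchain without IFNβ replicate 2, where its difference was -0.59. Their summed counts ranged from 370.4 to 976 without and from 619 to 1153 with IFNβ at 12 h, and from 1283 to 1997 and from 1359 to 1483 at 24 h. Of 17 dendritic cell markers 3 were members, Ccr7, Ccr9 and Fscn1, and of these Ccr7 was called. Their summed counts ranged from 1006 to 1655 without and from 548 to 1010.0 with IFNβ at 12 h, and from 5206 to 7078 without and from 1420.0 to 2197 with IFNβ at 24 h, with no overlap at 24 h. Erythroid markers had 2 members of 12, T and NK cell markers 1 of 18, and mast cell and stromal markers 0 of 12 and 0 of 17; none of these was called. The summed counts of the erythroid pair, Slc4a1 and Ermap, ranged from 401 to 1231 without and from 173 to 421 with IFNβ at 12 h, and from 48.5 to 303 and from 25.8 to 107 at 24 h. Cd4, the T cell member, ranged from 7.96 to 24.6 without and from 11.3 to 22.6 with IFNβ at 12 h, and from 55.1 to 55.9 and from 82.5 to 98.1 at 24 h. The labelled cell type could not be checked with the authors' 12 h table, which lists only genes that differed with IFNβ. It holds 7 of the 27 genes on the monocyte list. In its control libraries Ly6c2, the classical monocyte marker, stood at 23140.0 to 23910.0, while Ly6c1, the lowest of the 7, stood at 34.4 to 53.9.

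The authors' table of IFNβ against control at 12 h, which lists 1388 genes (8.86% of those tested), holds 78 of the 224 members (34.8%) and 33 of the 52 called ones. It uses the same 12 h libraries as the difference of changes, so the directions are not independent and are given side by side only. Over all 224 members, 41 were higher with IFNβ at 12 h in the authors' deposited table, 37 were lower and 146 were not listed. Of the 33 genes with a more negative change, 19 were higher with IFNβ at 12 h, 1 (Atp6v0d2, log2 fold change -2.03 in the authors' deposited table) was lower and 13 were not listed. Of the 19 genes with a more positive change, 11 were lower with IFNβ at 12 h, 2 (Ddx4 at 3.20 and Flt1, a VEGF receptor gene, at 3.38) were higher and 6 were not listed. Gas6, Cbr2, Ccl24 and Arg1 were lower at 12 h, at log2 fold changes of -2.97, -2.76, -2.64 and -2.48, and Ifit1bl1, Aplnr and Stra6l were higher, at 9.19, 4.37 and 3.21.

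Searched in the same windows, on both strands, the AP-1 site TGANTCA was found in windows of 19 members (11.5%, against 8.97% of all genes) and the PU.1 site GAGGAAGT in 15 (9.09%, against 3.69%). The PU.1 site, bound by the lineage factor of myeloid cells, was in windows of 7 of the 38 called and 8 of the 127 other members. A search that finds these letters, or does not, describes the window only.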

How the data were processed

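RNA from 12 samples of mouse bone marrow monocytes was sequenced. The labels' protocols name magnetic sorting, Trizol extraction and Illumina libraries. HISAT2 2.2.1, edgeR 3.3.3, bcl2fastq and GRCm38 are named in the submitters' processing notes. The sources used here do not give the counting tool, strand or filters. The deposited values are a signal per gene and library, normalized counts scaled by the authors within each table, beside the authors' deposited log2 fold changes and p-values. Of values below 3, 24.8% lay within 0.02 of a whole number, so reads could not be recovered, no count test was run, and depth and its precision are unknown.

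For 224 genes in both time tables, changes of log2(value + 1) per replicate number were compared between treatments with limma 3.58.1 (R 4.3.3; moderated test with variance trend, 3 changes against 3, Benjamini-Hochberg over the 224, threshold 0.05). The replicate numbers were taken to pair the 12 h and 24 h libraries of a treatment: deviations from the group means correlated at 0.280 to 0.509 for the same number (6 pairs) and at -0.359 to 0.0674 for different numbers (12 pairs). The 3 deviations of a gene in a group sum to 0, so positive values for the same number bring negative ones for different numbers. The gap between the ranges is therefore partly built in. Over all pairs of groups the ranges were 0.196 to 0.509 (18 pairs) and -0.425 to 0.108 (36 pairs). The number thus also linked libraries of different treatments, which the main fit does not use. For a single gene, an exact permutation test of 3 against 3 changes cannot go below p = 0.1 (two-sided), so it was not used. The fit was also run on simulated data with independent noise in each library, so the pairing by replicate number was not tested there. Promoter windows came from RefSeq, GRCm38.p6; 218 members matched by symbol and 6 by synonym.

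The members and gene lists were chosen with earlier results of these data known. Outside the 25% of members with the lowest counts and unnamed predicted genes, the naming rule took the 10 largest called differences per direction with no overlap, genes with opposite directions, up to 4 members per list by p, and the 6 narrowest intervals around 0. Other genes, such as Folr2, Bhlhe41, Plpp3, Sepp1 and Flt1, were named after their values were seen. Alternatives were other pseudocounts, a filter on low values, fits with and without the replicate number, no variance trend, centring, stricter thresholds and leaving out each replicate. The authors' table for 24 h holds none of the members and was not used here.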

Additional observations from a re-analysis of the deposited data

Results flagged for a closer look

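The time change differed between the treatments, by limma's test of the difference itself, for the named genes that follow, each with its IFNβ change minus control change on the log2 scale. Opposite directions were found for Arg1 (5.16) among genes that fell without IFNβ and for Aplnr (-3.19), Ifit1bl1 (-2.75) and Nr4a2 (-2.25) among genes that rose without it. For these genes a large difference was set by the way the members were chosen, so their calls are descriptive only. The rise was larger with IFNβ for Abcc3 (1.60), Cbr2 (1.61), Cd300ld4 (1.37), Enpp1 (1.44), Gas6 (2.19), Mertk (1.46), Rnase4 (1.63) and Timp2 (0.92). It was smaller for Atp6v0d2 (-0.81), Blnk (-0.75), Ccr7 (-1.06), Cd200 (-1.84), Fpr1 (-0.76), Fstl1 (-1.99), Gbgt1 (-2.42), Gprc5b (-1.92), Mcoln3 (-2.02), Stfa2l1 (-0.86) and Stra6l (-2.40). The fall was smaller with IFNβ for Ccl24 (2.12) and Ddx4 (1.77), and deeper for Bcl2a1a (-1.30), Jchain (-0.91), Klf4 (-0.56), Ptgs2 (-0.94) and Slc4a11 (-1.88). Groups of 3 replicates are too small to look for single samples far from the others.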

How the results depend on the processing

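Of 52 genes called (19 more positive, 33 more negative with IFNβ), 18 (5 and 13) passed with no replicate block, that is in the 4-group fit without replicate numbers, and all 18 were among the 52. With the replicate block extended to pair the treatments, 63 (27 and 36) passed, of which 51 were shared; the correlation of same-numbered control and IFNβ changes was 0.00434 to 0.207. With p-values adjusted over the implied number of genes the authors tested, 8 (3 and 5) passed, and at an adjusted p under 0.01, 31 (11 and 20). Leaving out 1 replicate gave 31 to 55 calls in all, 12 to 23 more positive and 19 to 32 more negative; the lowest values were those without control replicate 2. The other alternatives (pseudocounts of 0.1 and 10, the lowest 25% left out, no variance trend, centring, and an absolute difference of at least 1) gave 37 to 56 calls. Aplnr, Arg1, Bhlhe41, Gas6, Gprc5b, Ifit1bl1 and Stra6l passed under every alternative that keeps all genes. Of these, Aplnr, Arg1 and Ifit1bl1 have opposite directions, so a large difference was set by the choice of members. None of the named genes that were called changed direction under these alternatives. Of the named genes that were not called, 12 had a difference of the other sign in at least 1 alternative. Of 864 values of the named genes, 717 kept sign and side of the threshold, 29 changed sign without passing, 108 no longer passed and 10 passed only there. The cause of these shifts was not tested. The depth is unknown, and the tables list selected genes only, so the calls describe these 224 genes.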

Other observations

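The matrix list held 6 members of 29 genes, of which 1 was more positive with IFNβ (Timp2) and 1 more negative (Col4a1), where 23.2% of all members were called, and the median difference was 0.03. Col4a1, a basement membrane collagen gene, fell further with IFNβ, by a difference of -1.55 ± 0.55 (SE; limma adjusted p = 0.0488), and it kept the call in 1 of the 6 cases with a replicate left out (adjusted p of up to 0.152, without control replicate 1). The protease inhibitor gene Timp3 and the macrophage elastase gene Mmp12 did not pass, with differences of 0.50 ± 0.40 (SE; 95% interval -0.35 to 1.36) and -0.01 ± 0.30 (SE; 95% interval -0.66 to 0.63). The value of Timp3 was 0.03 without IFNβ replicate 1 and 0.84 without IFNβ replicate 2.

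Some called genes belong to no list and were named after their values were seen. Slc6a8, the creatine transporter gene, rose less with IFNβ, by 1.23, 1.42 and 1.03 against 2.36, 2.66 and 2.23 (difference -1.19 ± 0.22, limma adjusted p = 8.51e-04), and kept the call whichever replicate was left out. Myo1e, an unconventional myosin gene, rose further, by 2.59, 1.99 and 2.02 against 1.47, 0.77 and 1.35 (difference 1.0 ± 0.30, adjusted p = 0.0197), and lost the call without control replicate 2 (0.124) or IFNβ replicate 1. Igfbp6, an insulin-like growth factor binding protein gene, fell less, with changes of -1.08, -1.06 and -0.83 against -1.75, -1.73 and -2.37 (difference 0.96 ± 0.25, adjusted p = 0.00937, and 0.0532 without control replicate 3).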
